A study of Mus musculus with 6 samples.

Results

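The genes of cholesterol and fatty acid synthesis were followed in 4TO7 cells, a mouse mammary tumour line, with Six2 overexpression (Six2) and in 4TO7 cells carrying pcDNA, an expression vector (control). Total RNA was measured on 3 arrays of each group. Six2 encodes a homeobox protein that preserves the stem-like progenitors of the kidney, and the series title ties it to the control of E-cadherin in breast cancer metastasis. The labels do not give the number of clones, the species of the Six2 insert, or whether the replicates were separate cultures, so p-values measure only the spread between these arrays. The 35 members are a list of pathway genes, and the rule that finds their rows uses no measured value. A member was measured where a row of the array, called a probe set, named it alone in the platform annotation. This held for 34 members with 488 probe sets, out of 20848 genes. Acat2 was not measured here and enters only the counts of promoter motifs. Of the 34, 5 were regulators, 17 belonged to the sterol branch and 12 to the fatty acid branch.

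Cells make cholesterol from acetyl-CoA through mevalonate, squalene and lanosterol, and make fatty acids from the same acetyl-CoA through malonyl-CoA. The transcription factors SREBP-1 and SREBP-2 raise the genes of both branches. SCAP escorts them from the endoplasmic reticulum when sterols are low, and INSIG proteins hold them back when sterols are high. SREBP-2 is known to act mostly on sterol genes and the main liver form of SREBP-1 mostly on fatty acid genes. Both branches are active in many tumour cells and in the lactating mammary gland.

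The fatty acid members that passed the test were all lower in Six2 cells, and the sterol members that passed went both ways. Of 12 fatty acid members, 5 fell, 0 rose and 7 did not pass. Of 17 sterol members, 2 rose, 3 fell and 12 did not pass. No regulator passed. A call was an adjusted p under 0.05 from limma, with Benjamini-Hochberg adjustment over all genes, and values are log2 RMA values, where a difference of 1 is a doubling. Among all genes 14.7% were called, 6.7% higher and 8.02% lower. Calls were more common at higher values: among the 8974 genes with a mean above 6 the share was 24.6%, with 12.2% higher and 12.4% lower. With a mean above 6, 5 of 10 fatty acid members and 4 of 16 sterol members were called. The sterol count is near the share of such genes and the fatty acid count lies above it. The members were chosen with earlier results of these data known, so these shares are a description and no test. Over all measured members the shares were 41.7% in the fatty acid branch and 29.4% in the sterol branch, and no test was made of the difference between the branches. The median difference was -0.33 over the fatty acid members, -0.12 over the sterol members, -0.04 over the regulators and -0.05 over all genes.

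**Figure D1:**
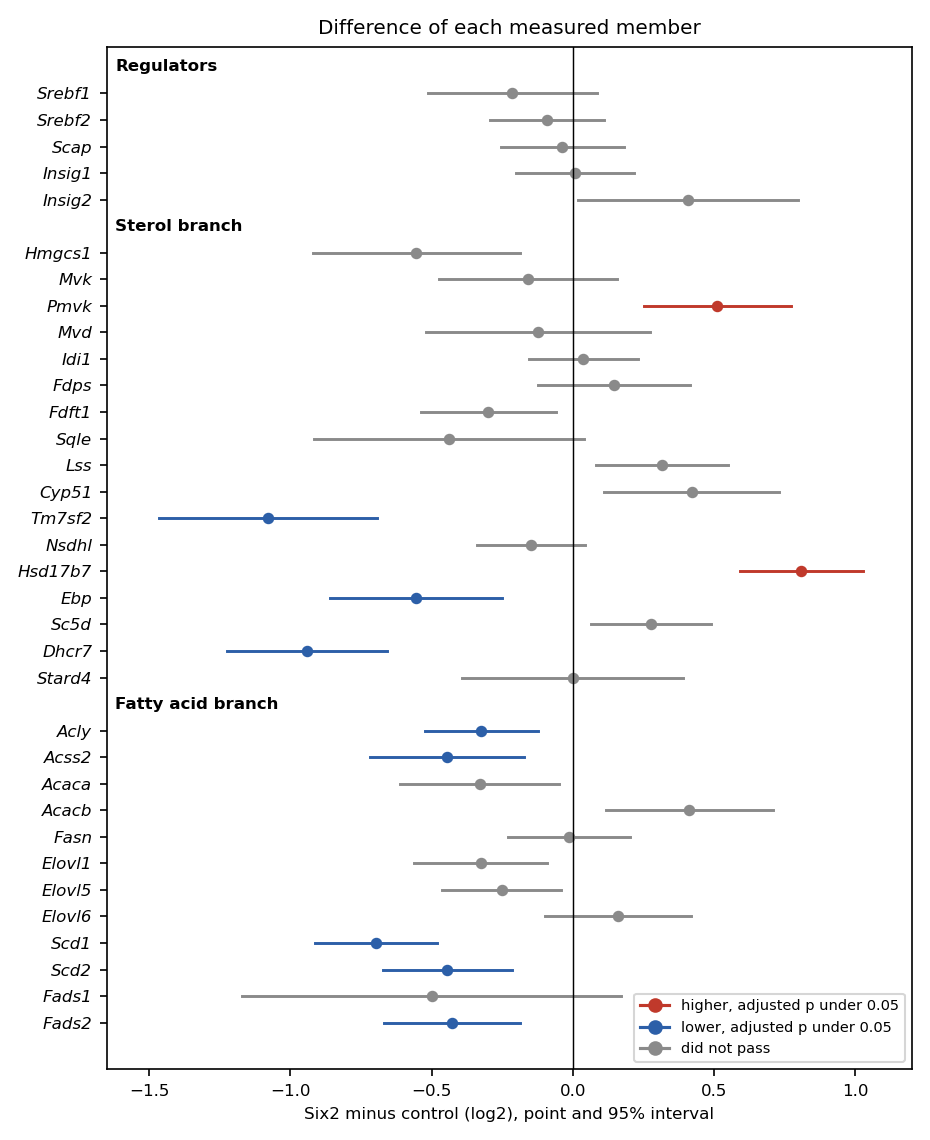
Six2 minus control on the log2 scale for each of the 34 measured members, in the order of the pathway within each branch. Points are limma estimates, lines are 95% intervals, and colours mark members past the threshold. All 5 called fatty acid members lie left of 0, and the called sterol members run from -1.08 to 0.81.

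Facts of the whole array bear on these counts. The 6 arrays correlated at 0.992 to 0.994 within the Six2 group, 0.994 within the control group and 0.983 to 0.987 between groups, across genes, which are not independent replicates. Six2 itself was dim, at 3.86 ± 0.23 in Six2 arrays and 3.52 ± 0.23 in control arrays (SD, n = 3 each), and its difference of 0.33 did not pass (adjusted p = 0.215 in limma), so this gene does not check the labels here. Of the epithelial markers, Krt8 and Krt18 had means of 12.05 and 11.3. Epcam lay near background, with a mean of 4.09, although the line is of mammary epithelial origin. The 5 epithelial markers averaged 6.92 to 7.13 on Six2 arrays and 8.23 to 8.37 on control arrays, and 4 of them fell. Of these, Cdh1, which encodes E-cadherin, was at 4.41 ± 0.17 in Six2 arrays and 7.57 ± 0.11 in control arrays (SD, n = 3 each), a fall of 8.91-fold (adjusted p = 6.56e-05 in limma), and the differences of the other 4 markers ran from -1.24 to -0.56. Of 7 adipocyte markers 0 passed in limma, 0 had an unadjusted p under 0.05, and their mean over markers was 3.44 to 3.81 on Six2 arrays and 3.73 to 3.89 on control arrays, near background. The 3 leucocyte markers measured averaged 3.13 to 3.80 on Six2 arrays and 3.63 to 3.81 on control arrays, near background, and 2 of them fell (Ptprc and Adgre1). The 3 endothelial markers averaged 3.15 to 3.23 on Six2 arrays and 3.17 to 3.40 on control arrays, and none passed. The 3 basal markers averaged 3.92 to 4.32 on Six2 arrays and 3.88 to 4.12 on control arrays, near background. Krt5 was at 0.71, Krt14 at -0.03 and Trp63 at -0.17, and none passed. Of 3 mesenchymal markers Fn1 (-0.62) and Sparc (-0.87) fell and Vim (0.01) did not pass. The part of these marker shifts in the member values was not tested. In a bulk sample, fewer cells with a transcript and less of it per cell cannot be told apart.

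The regulators of the pathway showed no called difference in Six2 cells. By unadjusted p, 1 of the 5 was under 0.05, beside 30.3% of all genes. Among the 8974 genes with a mean above 6, as all 5 have, 3983 were under it. Srebf1, which encodes SREBP-1, was at 7.61, 7.78 and 7.62 on Six2 arrays, against 8.10, 7.69 and 7.86 on control arrays. The groups overlapped, and the difference of -0.21 had a 95% interval from -0.51 to 0.08. Srebf2, which encodes SREBP-2, was at 9.64, 9.55 and 9.58 on Six2 arrays, against 9.65, 9.75 and 9.66 on control arrays. Its Six2 arrays lay just below the control arrays, and the interval of its difference was -0.29 to 0.11. The intervals for Scap, the SREBP escort, were -0.25 to 0.18, and for Insig1, which retains SREBPs and is itself an SREBP target, -0.20 to 0.22. Changes of 2-fold in these 4 transcripts thus lie outside their intervals. All 5 probe sets of Insig1 were positive, from 0.04 to 0.30. Insig1 was at 0.17 by their mean and at 0.30 by the brightest, and neither passed. These are RNA levels, and cleavage of SREBP protein was not measured.

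Insig2, a relative of Insig1 that is not a classical SREBP target, was at 8.66, 8.51 and 8.36 on Six2 arrays, against 7.82, 8.07 and 8.42 on control arrays. The groups overlapped through control replicate 3, and at 0.41 (SE 0.16) the difference missed the threshold (adjusted p = 0.148 in limma). Averaging its probe sets gave 0.51 and a call (adjusted p = 0.0104 in limma), and so did taking the brightest one (0.44, adjusted p = 0.0406 in limma). All 7 of its probe sets were positive, from 0.10 to 1.35. Insig2 lies on chromosome 1, where genes with a mean above 6 had a median difference of 0.44, and with that median taken off its difference was -0.03.

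In the sterol branch, the early steps to mevalonate and isoprenoids held 1 call. Pmvk, phosphomevalonate kinase, rose. It was at 7.18, 6.998 and 6.91 on Six2 arrays, against 6.56, 6.40 and 6.59 on control arrays. The groups were fully separate, and the difference was 0.51 (SE 0.11, adjusted p = 0.0234 in limma). All 6 of its probe sets were positive and none passed alone. Pmvk lies on chromosome 3, where the median of genes with a mean above 6 was 0.37 and 42.5% of 419 such genes rose. With that median taken off, Pmvk was at 0.14 and did not pass (adjusted p = 0.459 in limma).

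Hmgcs1, which makes HMG-CoA and is a classical SREBP-2 target, stood just outside the threshold. It was at 8.14, 8.395 and 7.85 on Six2 arrays, against 8.52, 8.75 and 8.78 on control arrays. The groups did not overlap, and the difference was -0.55 (SE 0.16, adjusted p = 0.0561 in limma). Of its 13 probe sets 12 were negative, and the mean over them passed, at -0.37. Just inside the threshold lay Acly, with an adjusted p of 0.0462. Mvk (-0.16), Mvd (-0.12), Idi1 (0.04) and Fdps (0.14), the enzymes from mevalonate to farnesyl diphosphate, did not pass, and their groups overlapped. The widest of their intervals was that of Mvd, from -0.52 to 0.27. Most probe sets of 2 of these enzymes went against the gene value. In Mvd 9 of 11 were positive, with 0.26 by their mean, and in Idi1 6 of 9 were negative.

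The steps through squalene to lanosterol held no call, though 2 of 3 had an unadjusted p under 0.05. Of all genes 30.3% did, and 3983 of the 8974 with a mean above 6, as all 3 have. Fdft1, squalene synthase, was at -0.30 and Sqle, squalene epoxidase, at -0.44, while Lss, lanosterol synthase, was at 0.31. In each of the 3, the Six2 and control arrays did not overlap. Over all genes 35.8% did not overlap, and 55.1% of those with a mean above 6. Sqle was at 10.11, 10.25 and 9.46 on Six2 arrays, against 10.43, 10.26 and 10.45 on control arrays. Its low value was on Six2 replicate 3, the lowest of the Six2 arrays in 10 of 17 sterol members and 5 of 12 fatty acid members. Over the genes with a mean above 6 this array was the lowest in 37.4%. Without it, Sqle was at -0.20, and it was also at -0.20 by the mean of its probe sets and at -0.03 by the brightest. Without this array, 5 sterol members were called, the same number as with it, but Cyp51 in place of Ebp.

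The conversion of lanosterol to cholesterol held 4 of the 5 sterol calls, among 7 members, and these went in both directions. Of all genes 14.7% were called. With a mean above 6, 3 of 6 of these members were called, beside 24.6% of such genes. The 250 bases before the RefSeq gene start are shown for the 3 called members with the largest difference, with matches of CCAAT and GGGCGG on either strand in capitals (build GRCm38.p6, printed along the gene's strand). CCAAT is the core bound by NF-Y and GGGCGG that bound by Sp1, both known partners of SREBP at sterol genes. Tm7sf2 lies on the minus strand at chr19:6067851-6068100, Hsd17b7 on the minus strand at chr1:169969206-169969455, and Dhcr7 on the plus strand at chr7:143829964-143830213. Dhcr7 has 3 annotated starts, of which the one with the most matches is shown.
Tm7sf2: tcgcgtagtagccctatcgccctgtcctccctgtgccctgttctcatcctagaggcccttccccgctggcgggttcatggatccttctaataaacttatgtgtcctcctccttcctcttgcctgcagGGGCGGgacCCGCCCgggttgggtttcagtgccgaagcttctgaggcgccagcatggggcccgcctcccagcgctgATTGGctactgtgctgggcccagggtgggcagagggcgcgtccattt
Hsd17b7: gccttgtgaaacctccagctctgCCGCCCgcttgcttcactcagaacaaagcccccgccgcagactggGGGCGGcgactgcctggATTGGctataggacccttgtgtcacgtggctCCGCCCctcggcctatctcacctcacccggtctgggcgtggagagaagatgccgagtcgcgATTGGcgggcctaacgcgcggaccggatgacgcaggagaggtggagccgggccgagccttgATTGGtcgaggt
Dhcr7: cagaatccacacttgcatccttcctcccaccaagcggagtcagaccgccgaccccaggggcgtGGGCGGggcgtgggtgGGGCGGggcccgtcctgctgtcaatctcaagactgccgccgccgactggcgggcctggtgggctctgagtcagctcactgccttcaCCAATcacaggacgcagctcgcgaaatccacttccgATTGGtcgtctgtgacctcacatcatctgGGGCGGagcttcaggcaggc
Tm7sf2 held 1 CCAAT and 2 GGGCGG, Hsd17b7 held 3 of each, and this Dhcr7 window held 2 CCAAT and 3 GGGCGG. The other Dhcr7 windows held no CCAAT, and 1 of them held 1 GGGCGG.

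RefSeq windows were found for 28 of the 35 members. A CCAAT on either strand was in 13 of 14 sterol members with a window, in 5 of 9 fatty acid members and in 4 of 5 regulators, against 41.1% of 7241 genes with a mean above 6 and a window. A GGGCGG was in 13 of 14, 4 of 9 and 5 of 5, against 68.4%. The sterol response element core TCACNCCAC, searched on both strands, was in 1 member, Hmgcs1, with its match beginning 137 bases before the start and overlapping no other match, against 1.19% of those genes. A gene with several starts counts where any window holds the motif. A match is a description of letters, not of binding.

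Tm7sf2 encodes the sterol reductase that acts next after lanosterol demethylation. It fell 2.12-fold. It was at 5.26, 5.65 and 5.07 on Six2 arrays, against 6.26, 6.56 and 6.41 on control arrays. All Six2 arrays were beneath all control arrays, and the difference was -1.08 (SE 0.16, adjusted p = 0.00724 in limma). All 11 probe sets were negative, from -2.03 to -0.34, and 2 passed, beside 2.8% of all rows of the array, 1.2% higher and 1.6% lower. With the brightest probe set the value was -1.13 and did not pass (adjusted p = 0.0793 in limma). Lbr, the lamin B receptor, which is not a member and carries out the same reduction, went the other way. It was at 10.64, 10.26 and 10.01 on Six2 arrays, against 9.42, 9.18 and 9.59 on control arrays, a rise of 0.90 (SE 0.18, adjusted p = 0.0188 in limma). Lbr lies on chromosome 1, and with the chromosome median taken off it was at 0.47 and did not pass (adjusted p = 0.154 in limma). Its call was also lost without Six2 replicate 2, control replicate 1 or control replicate 2, and the value ran from 0.74 to 1.05 over the 6 arrays left out in turn.

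Dhcr7, the reductase of the last step to cholesterol, fell 1.92-fold. It was at 7.73, 7.90 and 7.56 on Six2 arrays, against 8.70, 8.77 and 8.55 on control arrays. The groups lay well apart, and the difference was -0.94 (SE 0.12, adjusted p = 0.00399 in limma). Of its 11 probe sets 8 were negative and 3 were positive. The 8 negative ones ranged from -0.97 to -0.68, and 1 passed. The positive ones were at 0.61, 0.14 and 0.15, and the last of these was the brightest, at 10.12 in Six2 and 9.98 in control arrays. With that probe set alone Dhcr7 was therefore at 0.15 and did not pass (adjusted p = 0.543 in limma). Whether the parts of the gene differ was not tested.

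Hsd17b7, the reductase that acts on the sterol ketone during demethylation, rose 1.75-fold. It was at 9.68, 9.84 and 9.70 on Six2 arrays, against 8.86, 8.96 and 8.98 on control arrays. The difference of 0.81 (SE 0.09, adjusted p = 0.00261 in limma) was the largest rise among the members. All 11 probe sets were positive, from 0.61 to 0.99, and 7 of them passed, of the 9 that rose in the sterol branch. Hsd17b7 lies on chromosome 1, where 54.7% of 497 genes with a mean above 6 rose. With the chromosome median of 0.44 taken off, the value was 0.37 and still passed (adjusted p = 0.0491 in limma).

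Ebp, the isomerase that moves the sterol double bond, fell. It was at 8.002, 7.80 and 7.80 on Six2 arrays, against 8.65, 8.26 and 8.36 on control arrays, without overlap. The difference was -0.56 (SE 0.13, adjusted p = 0.0306 in limma), and all 6 probe sets were negative. Cyp51, the lanosterol demethylase (0.42), Sc5d, a sterol desaturase (0.28), and Nsdhl, which works beside Hsd17b7 (-0.15), did not pass, with adjusted p of 0.0778, 0.0875 and 0.276. The 7 members after lanosterol all had Six2 and control arrays that did not overlap, 3 above and 4 below, beside 35.8% of all genes and 55.1% of those with a mean above 6, as 6 of the 7 have. Stard4, a cytosolic sterol carrier and known SREBP-2 target, was at -0.00 with an interval from -0.39 to 0.39.

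**Figure D2:**
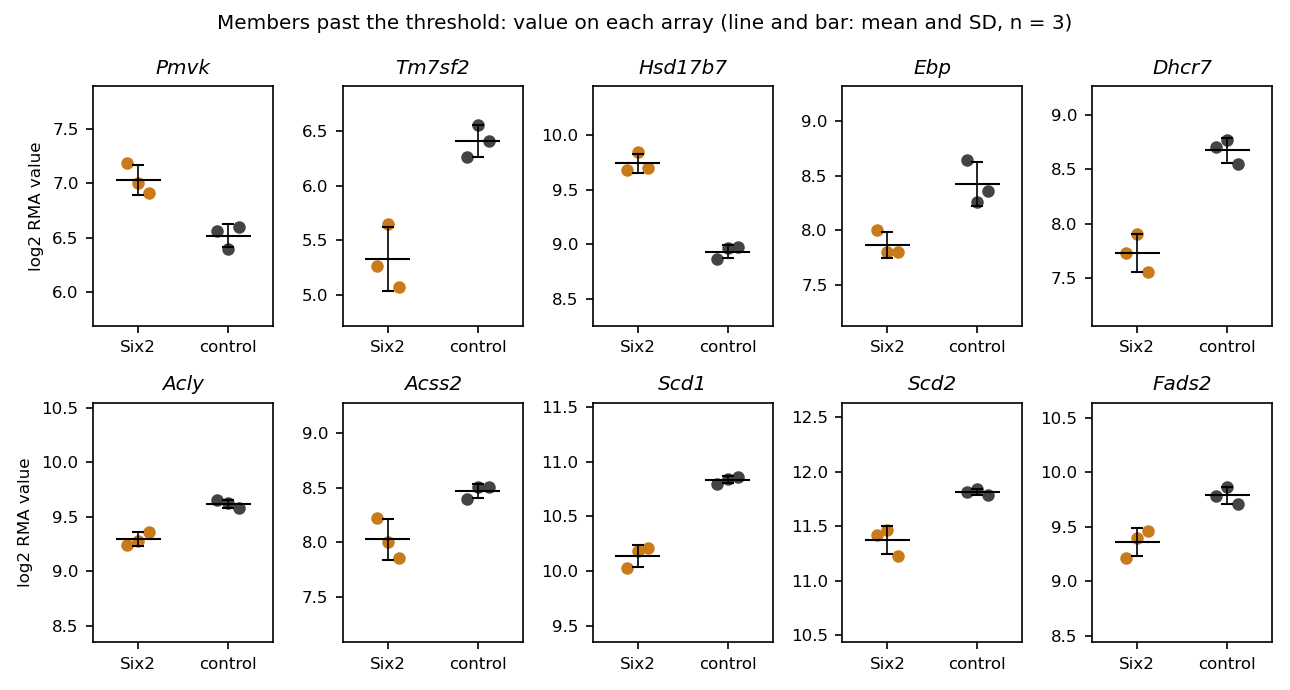
Log2 RMA value on each array for the 10 called members, with Six2 left and control right, lines for the mean and bars for the SD (n = 3). Every panel spans the same range of log2 units, and in none do the groups overlap. Hsd17b7 and Pmvk are higher in Six2 arrays, and the other 8 are lower.

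In the fatty acid branch, both enzymes that supply cytosolic acetyl-CoA were called lower, beside 8.02% of all genes and 12.4% of those with a mean above 6. Acss2, which makes acetyl-CoA from acetate, was at 8.22, 8.001 and 7.85 on Six2 arrays, against 8.40, 8.51 and 8.51 on control arrays. The groups did not overlap, and the difference was -0.45 (SE 0.12, adjusted p = 0.0445 in limma), with 19 of 20 probe sets negative. The call of Acss2 was lost in 9 of 15 alternatives, though the value stayed negative in all. Acly, which cleaves citrate to acetyl-CoA, was at 9.24, 9.28 and 9.37 on Six2 arrays, against 9.66, 9.63 and 9.58 on control arrays. The difference was -0.32 (SE 0.09, adjusted p = 0.0462 in limma). The call of Acly rested on single choices and was lost in 12 of the 15 alternatives. It was lost without any 1 of the 6 arrays (-0.36 to -0.30), with the average over its probe sets (-0.15) and with the median taken after each probe set was centred (-0.15), and its brightest probe set was at 0.07. Slc25a1, the citrate carrier that brings citrate out of mitochondria and is not a member, fell by 0.93 log2 units (SE 0.09, adjusted p = 0.00136 in limma). It was at 9.30, 9.18 and 9.35 on Six2 arrays, against 10.19, 10.19 and 10.25 on control arrays, and its call held in all 15 alternatives run.

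Chain synthesis held no call among 3 members, with 2 at an unadjusted p under 0.05. Of all genes 30.3% were under it, and 3983 of the 8974 with a mean above 6, as 2 of the 3 have. Fasn, the fatty acid synthase, was at 10.81, 10.79 and 10.88 on Six2 arrays, against 10.94, 10.82 and 10.76 on control arrays. Its groups overlapped, and the difference of -0.01 had an interval from -0.23 to 0.20. Of its 47 probe sets, 22 were positive and 25 negative. Acaca, the cytosolic acetyl-CoA carboxylase, was at -0.33 (adjusted p = 0.112 in limma), without overlap of the groups. Acacb, the carboxylase at mitochondria, lay near background with a mean of 4.17. Its difference of 0.41 did not pass (adjusted p = 0.0713 in limma), and it turned to -0.01 with dim probe sets left out and -0.16 with its brightest probe set.

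The 3 elongases among the members did not pass. Elovl1, which acts on saturated very long chains, was at -0.33 (adjusted p = 0.0728 in limma), and Elovl5, which acts on polyunsaturated chains, at -0.25 (adjusted p = 0.108 in limma). In both, the Six2 arrays lay below the control arrays. Elovl6, which lengthens palmitate, was at 0.16, and its groups overlapped. It lies on chromosome 3, and with the chromosome median taken off it was at -0.21 without passing.

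Desaturases held 3 of the 5 fatty acid calls, all lower. Of all genes 8.02% were called lower, and 12.4% of those with a mean above 6, as 3 of the 4 desaturases have. Scd1, which makes oleate and palmitoleate from saturated chains, was at 10.02, 10.18 and 10.21 on Six2 arrays, against 10.80, 10.84 and 10.87 on control arrays. The difference of -0.70 (SE 0.09, adjusted p = 0.00442 in limma), a fall of 1.62-fold, was the largest of the branch. All 9 probe sets were negative, from -0.80 to -0.52, and 3 of them passed. Scd2, its close relative, was at 11.415, 11.47 and 11.22 on Six2 arrays, against 11.81, 11.84 and 11.79 on control arrays. It fell by 0.44 log2 units (SE 0.10, adjusted p = 0.0253 in limma), and all 5 probe sets were negative. These genes are similar in sequence, so a probe may read more than 1 of them. Of their relatives outside the list, Scd3 was at 0.38 and Scd4 at -0.14, and neither passed.

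Fads2, which desaturates essential fatty acids, fell too. It was at 9.21, 9.40 and 9.46 on Six2 arrays, against 9.79, 9.86 and 9.71 on control arrays. The difference was -0.43 (SE 0.10, adjusted p = 0.0336 in limma), and all 13 probe sets were negative, 2 of them past the threshold. Its neighbour Fads1 lay near background, at 3.17 ± 0.50 in Six2 arrays and 3.67 ± 0.38 in control arrays (SD, n = 3 each). All 4 desaturases lie on chromosome 19, where genes with a mean above 6 had a median of -0.18, 3.85% rose and 19.9% fell. With that median taken off, Scd1 passed at -0.52 (adjusted p = 0.0160 in limma), while Scd2 at -0.26 (adjusted p = 0.139 in limma) and Fads2 at -0.25 (adjusted p = 0.177 in limma) did not.

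**Figure D3:**
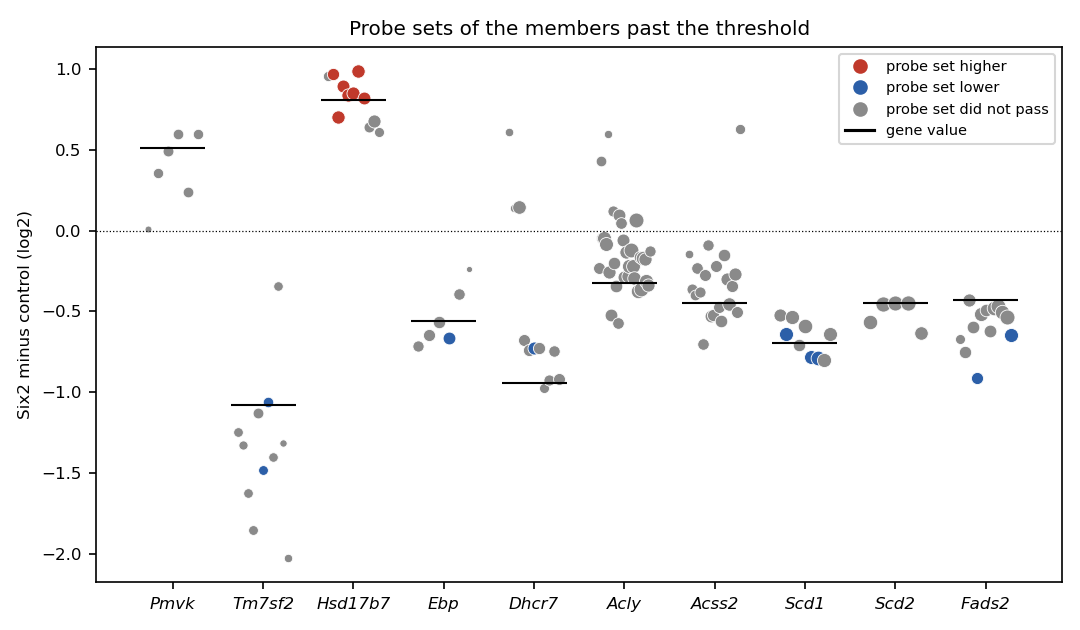
Six2 minus control on the log2 scale for each probe set of the 10 called members. Each point is a probe set, larger where its mean value is higher, coloured where it passed over all rows, and the line is the value of the gene. All probe sets of Hsd17b7 lie above 0 and all of Scd1, Scd2, Fads2, Ebp and Tm7sf2 below it, while Dhcr7 has 3 above 0.

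Set against the mean of the control arrays, which puts those arrays near 0, the median of the fatty acid members was -0.32, -0.34 and -0.29 on the Six2 arrays and 0.02, 0.01 and -0.01 on the control arrays. For the sterol branch these medians were -0.10, 0.00 and -0.10 on Six2 arrays and -0.02, -0.08 and 0.07 on control arrays. These medians are a description without a test, and Acacb and Elovl6 were positive. Within the fatty acid branch, 9 of 12 members had groups that did not overlap, beside 35.8% of all genes and 55.1% of those with a mean above 6, as 10 of the 12 have. In 8 of the 12 all Six2 arrays lay below, beside 20.1% of all genes and 2463 of the 8974 with a mean above 6.

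How many members are called depends on which arrays enter. Without any 1 array, Hsd17b7, Scd1, Dhcr7 and Tm7sf2 passed every time. Over all genes the share called was then 9.36%, 9.1% and 11.7% without Six2 replicate 1, 2 and 3, and 8.11%, 7.51% and 10.4% without control replicate 1, 2 and 3. The fatty acid branch had 2 calls without Six2 replicate 1, 2 or 3 and 1 call without control replicate 1, 2 or 3, that of Scd1. The sterol branch had 3 to 5 calls, with 3 without control replicate 1. Pmvk was lost without Six2 replicate 1 or 2 and control replicate 1 or 2 (0.43 to 0.57 over the 6 fits). Ebp was lost without Six2 replicate 2 or 3 and control replicate 1 or 3 (-0.64 to -0.44). Scd2 passed only without Six2 replicate 2 (-0.49 to -0.37), Acss2 only without Six2 replicate 1 (-0.54 to -0.36) and Fads2 only without Six2 replicate 3 (-0.48 to -0.36). All these values kept their direction.

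The summary of probe sets and the model of the spread moved both branches. Averaging probe sets, which called 23.3% of all genes, gave 9 sterol calls, 4 higher and 5 lower, with Cyp51, Lss, Fdft1 and Hmgcs1 added. It gave 7 fatty acid calls, with Acacb at 0.22 (adjusted p = 0.0454 in limma) as the only one higher, which also passed with quantile normalization. A trended and robust variance, which called 20.2%, gave 10 sterol and 8 fatty acid calls, with Acaca, Elovl1 and Elovl5 added to the fatty acid branch, all lower. Neither setting called Fasn, Srebf1, Srebf2, Scap or Insig1.

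The shift along chromosomes moved both branches. With chromosome medians taken off genes with a mean above 6, 9.99% of all genes were called. The sterol branch had 4 calls, 1 higher and 3 lower, and the fatty acid branch had 2, both lower, Scd1 and Elovl5. Elovl5 lies on chromosome 9, where the median was 0.12, and moved to -0.38 (adjusted p = 0.0424 in limma). Tm7sf2, with a mean of 5.87, was left as it was by this step. Among the 24 measured members away from chromosomes 1, 3, 17 and 19, 0 rose and 4 fell, with a median difference of -0.15. This share of 16.7% is near the 14.7% of all genes and under the 24.6% of genes with a mean above 6, as 23 of the 24 have. By unadjusted p under 0.05, 4 of the 24 were higher and 9 lower. Of all genes 30.3% were under 0.05, and 3983 of the 8974 with a mean above 6. The share of calls depends on which chromosomes are left out. Leaving them out removed the calls of Hsd17b7, Pmvk, Tm7sf2, Scd1, Scd2 and Fads2. Chromosome 19, with a median of -0.18, was left out, while chromosome 8, with a median of 0.18, was kept. The part of the chromosome shift in the member values was not tested further.

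**Figure D4:**
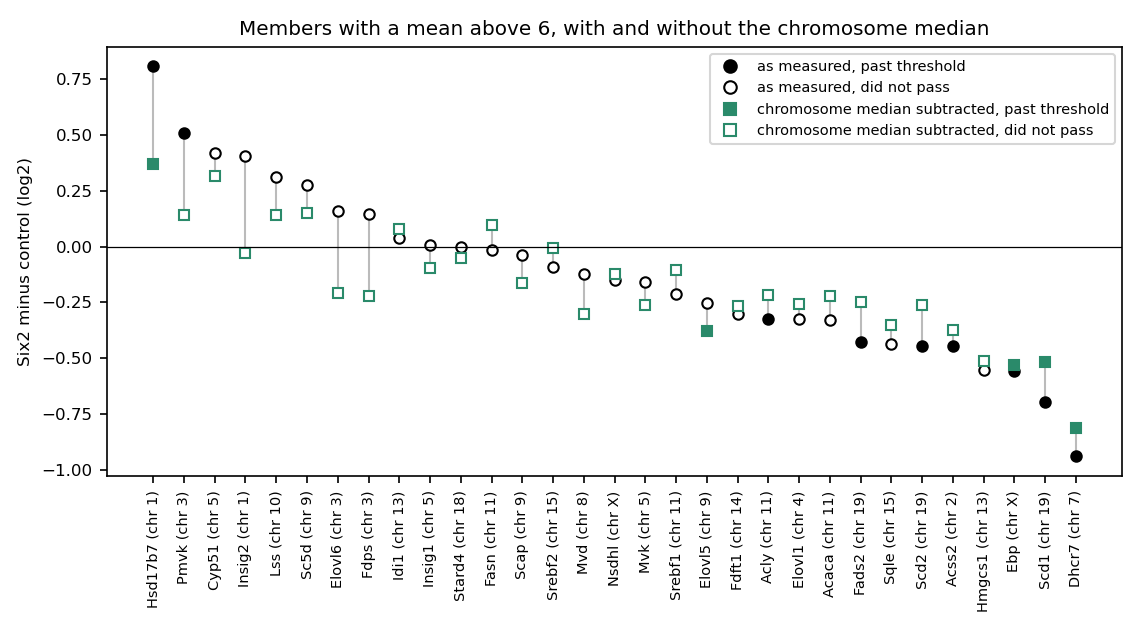
Six2 minus control on the log2 scale for the 31 members with a mean above 6, as measured (circles) and with the median of their chromosome taken off (squares), filled where past the threshold. Hsd17b7, Scd1, Dhcr7 and Ebp pass both ways. Pmvk, Acly, Acss2, Scd2 and Fads2 pass only as measured, and Elovl5 only after the step.

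Other genes of the pathway were followed in a list of 29 companions, of which 27 were measured. Of these, 3 rose, 5 fell and 19 did not pass, a share of 29.6% beside the 14.7% of all genes. With a mean above 6, 6 of 20 companions were called beside 24.6% of such genes. This list too was chosen with earlier results of these data known, so its shares are no test. The 8 called are Lbr and Slc25a1, given above, and 6 that follow. Soat1, which esterifies cholesterol for storage, rose by 1.07 (SE 0.10, adjusted p = 0.00127 in limma). It was at 9.78, 9.94 and 9.997 on Six2 arrays, against 8.75, 8.91 and 8.86 on control arrays, and on chromosome 1 with the median taken off it was at 0.63 and passed (adjusted p = 0.0105 in limma).

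Companions of the liver X receptor arm, which answers to high sterols, also went both ways. Abca1, the cholesterol exporter and a classical target of these receptors, rose by 0.97 (SE 0.10, adjusted p = 0.00197 in limma). It was at 6.87, 6.62 and 6.74 on Six2 arrays, against 5.77, 5.69 and 5.85 on control arrays. Its brightest probe set gave 0.90 without a call (adjusted p = 0.0990 in limma). Nr1h2, which encodes liver X receptor beta, fell by 0.62 log2 units (SE 0.10, adjusted p = 0.00770 in limma). It was at 8.80, 9.03 and 8.90 on Six2 arrays, against 9.56, 9.54 and 9.47 on control arrays. Nr1h3, the other receptor gene of the list, was at -0.48 and did not pass (adjusted p = 0.147 in limma). Among other targets of the receptors, Mylip was at -0.54, Lpcat3 at -0.34 and Abcg1 at 0.06, and none passed. Of the 6 companions of this arm, 5 had an unadjusted p under 0.05, 1 higher and 4 lower, beside 30.3% of all genes. Among the 8974 genes with a mean above 6, as 4 of the 6 have, 3983 were under it.

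Of 11 companions of fatty acid synthesis, 0 rose and 4 fell, beside 14.7% of all genes called and 8.02% lower. With a mean above 6, 2 of 6 were called, beside 24.6% of such genes. By unadjusted p under 0.05, 1 was higher and 5 lower, beside 30.3% of all genes. Besides Slc25a1, those called were Elovl7, an elongase (-0.94, SE 0.16, adjusted p = 0.00967 in limma), Elovl3, another elongase (-0.74, adjusted p = 0.0152 in limma), and Mlxipl, the glucose-responsive factor ChREBP (-0.76, adjusted p = 0.0322 in limma). Elovl7 was at 5.68, 5.85 and 5.47 on Six2 arrays, against 6.54, 6.41 and 6.89 on control arrays. Elovl3 and Mlxipl lay near background, with means in Six2 arrays of 3.16 and 3.82, and in control arrays of 3.90 and 4.58. Elovl3 stood at -0.23 by its brightest probe set, and its call was lost without Six2 replicate 1, control replicate 1 or control replicate 3 (-0.85 to -0.68). Mlxipl stood at -0.21 by its brightest probe set, and its call was lost without Six2 replicate 1 or 3 or control replicate 1 or 3 (-0.88 to -0.61). The SREBP proteases Mbtps1 (0.27) and Mbtps2 (-0.03), the esterifying enzymes Gpam (-0.37), Dgat1 (-0.18) and Dgat2 (0.12), the sterol demethylation enzyme Msmo1 (0.36) and the sterol transporters Npc1 (0.16) and Npc2 (0.55) did not pass.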

How the data were processed

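Each of the 6 arrays was hybridised with biotinylated cRNA from 6 ug of total RNA, as the labels' protocols state. Per the submitters' processing notes, the authors used Affymetrix Power Tools with RMA, a method that corrects background, makes the arrays alike in distribution and summarises probes, and the deposited values are on the log2 scale. The sources used here give neither versions nor the array's genome build. A change in total RNA per cell cannot show after such scaling, and differences of dim genes come out too small. The number of arrays limits the precision.

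Of 241576 rows, 213361 had 1 gene symbol, 5107 several and 23108 none. Old symbols were updated with RefSeq (GRCm38.p6): 18496 matched as given, 2354 by synonym and 43 not. A gene's value was the median over its probe sets, giving 20848 genes without a filter. Groups came from the labels and were compared with limma 3.58.1 (lmFit, eBayes, two-sided, Benjamini-Hochberg) in R 4.3.3, with the package data.table (version 1.17.8). The steps were tested on simulated data. No batch is labelled, and one that coincided with a group could not be told apart from it.

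The list of members, the companions and the markers were chosen with earlier results of these data known, although the rule for finding members' rows uses no values. All 35 members are described, with array values for those called, for the 3 regulators with the largest differences, and for Hmgcs1, Sqle and Fasn, chosen after values were seen. Companions are named where called, and others by role, after values were seen. Promoters are RefSeq windows. No protein sequences are shown. Alternatives changed the probe set summary, dim rows (30th percentile), scaling, replicate block, arrays, variance model and chromosome shift, and 1, the row-centred median, was chosen after seeing the data.

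The labels do not say whether arrays with the same replicate number belong together, and the main test did not pair them. Deviations from group means of arrays with the same number correlated at -0.01, -0.01 and -0.05 across genes. For arrays with different numbers the values ran from -0.03 to 0.04. With 3 arrays per group these values show no sign of pairing but cannot exclude it.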

Additional observations from a re-analysis of the deposited data

How the results depend on the processing

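Over 15 alternatives, 42 genes (34 members and 8 called companions) gave 630 values. Of these, 500 kept direction and side of the threshold, 66 kept direction but lost the call, 30 gained it and 34 turned sign. Values that turned sign are counted only there, also where the call was lost, as for Acly and Dhcr7 by the brightest probe set. Scd1 and Hsd17b7 were the 2 of 10 called members that passed in all of them. Calls over all genes numbered 3068, with 4858 by the mean of the probe sets, 5164 by the row-centred median, 1828 with the replicate block and 1565 to 2447 without 1 array. Calls in the sterol branch, 5 as reported, were 9 by the mean, 3 by the brightest probe set, 10 by the row-centred median, 10 with trend and robust variance and 3 to 5 without 1 array. Calls in the fatty acid branch, 5 as reported, were 3 by the brightest probe set, 2 with arrays centred on the median, 1 with the replicate block, 8 with trend and robust variance, 2 with chromosome medians subtracted and 1 to 2 without 1 array. Regulators had 0 calls, and 1 (Insig2) by the mean, the brightest probe set and the row-centred median. Companions had 8, with 15 by the mean, 16 by the row-centred median, 13 with trend and robust variance and 5 to 8 without 1 array. The replicate block has fewer residual degrees of freedom, and dropping an array fewer samples; for the other settings the cause was not tested. Centring the arrays turned the split of all calls to 1695 higher and 1283 lower, against 1396 and 1672. Signs turned mostly at small values. By the mean these were Idi1 (-0.032), Mvd (0.26), Nsdhl (0.19) and Scap (0.10). By the row-centred median they were Idi1 (-0.039), Mvd (0.25), Scap (0.11) and Stard4 (0.0068). By the brightest probe set they were Acacb (-0.16), Acly (0.068), Dhcr7 (0.15), Idi1 (-0.079), Mvd (0.15), Scap (0.13), Srebf1 (0.0071) and Stard4 (0.029), and with dim rows left out Acacb (-0.0057). They were Fasn with quantile normalization (0.014), and with arrays centred Fasn (0.040), Scap (0.016) and Stard4 (0.052). With chromosome medians subtracted they were Elovl6 (-0.21), Fasn (0.10), Fdps (-0.22), Insig1 (-0.10) and Insig2 (-0.030). Without 1 array, Stard4 (-0.14 to 0.17), Fasn (-0.054 to 0.039), Insig1 (-0.042 to 0.033) and Mvd (-0.24 to 0.0054) turned. Signal near background limits Fads1, Acacb, Elovl3 and Mlxipl.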
